A study of Sus scrofa with 15 samples.

Results

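The genes described here encode the subunits of potassium channels in pig (Sus scrofa) corpus cavernosum, the erectile tissue of the penis, built of blood sinusoids between bands of smooth muscle. They are every gene whose symbol begins with KCN followed by a letter from A to V, apart from KCNMA1, KCNMB1 and KCNJ8. This rule found 91 of the 26654 genes of the deposited table. Of these, 62 were measured, meaning a mean of at least 0.5 TPM (the authors' level per length of transcript, scaled to a fixed sum in each library) in 1 or more of the 5 groups, and the other 29 were below that level. By family, 24 of 39 pore-forming subunits of voltage-gated channels (Kv) were measured, as were 13 of 13 accessory Kv subunits, 9 of 14 inward rectifiers (Kir), 8 of 15 2-pore-domain channels (K2P) and 8 of 10 calcium-activated channels and their relatives (KCa).

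Polyadenylated RNA of penile corpus cavernosum was sequenced in 15 libraries, 3 in each of 5 groups. The groups are named, as in the labels, normal tissue, defect, ECs+ implantation and 2 others called implantation A and implantation B. By the design text, the first, the second and implantation A form 3 pairs, and ECs+ implantation and implantation B form another. The labels give no strain, age, sex, time, material of the implants or meaning of ECs, and do not say how implantation A and B differ. They do not say that the libraries come from separate animals, so a p-value here measures no more than how far these libraries spread, and that spread may be technical.

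Potassium channels let potassium leave the cell along its gradient, which draws the membrane potential toward negative values and, in smooth muscle, closes voltage-gated calcium channels. In the arteries and sinusoids of erectile tissue this hyperpolarisation goes with relaxation and filling. Kv channels open on depolarisation, Kir channels carry current near the resting potential, K2P channels give a background leak, and KCa channels answer to intracellular calcium in endothelium, muscle and nerve.

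Many of the genes not measured are known from brain, sensory cells, heart or kidney. Among Kv pore-forming genes they included KCNA10, KCNB2, KCNC2, KCNF1, KCNG3, KCNG4, KCNH5, KCNH6, KCNH7, KCNH8, KCNS2, KCNV1 and KCNV2. Among Kir genes they were KCNJ1, KCNJ4, KCNJ6, KCNJ10 and KCNJ13. Among K2P genes they were KCNK4, KCNK9, KCNK10, KCNK15, KCNK16, KCNK17 and KCNK18, and in the last family KCNMB2 and KCNU1.

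Total counts were 17234169 to 19644793 in 13 libraries, but 207769 in defect 1 and 250178 in defect 2. In these 2 shallow libraries 1 count equals 4.81 and 4.0 CPM (counts scaled to library size), and a count of 0 allows up to 14.4 and 12.0 CPM, against 0.169 CPM in defect 3. The members took 71 and 87 counts there in all, and 6374 to 9197 in the other libraries. Values of defect 1 and 2 are therefore printed but rest on a handful of reads, and defect 3 carries most of what the defect group shows. KCNA7, KCNH1 and KCNJ16 count as measured only through a shallow library, and the 44.2 TPM of KCNIP1 in defect 1 rest on 2 counts.

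Marker genes of the labelled tissue were present in every group. Summed over 8 genes each, smooth muscle markers stood at 2568 to 5908 CPM and endothelial markers at 1525 to 4214 CPM. The list of keratinocyte and urothelium markers, 7 of whose 8 genes are in the table, differed far more between groups. It summed to 919 to 964 CPM in normal, 2426 to 2594 in defect, 2185 to 2210 in implantation A and 1872 to 1905 in implantation B, but to 3.26 to 3.96 in ECs+ implantation, where KRT15 was at 0. Macrophage markers (6 genes) summed to 272 to 280 CPM in normal, 775 to 841 in defect, 324 to 330 in implantation A, 645 to 649 in implantation B and 277 to 286 in ECs+ implantation. Fibroblast markers (COL1A1, COL3A1, DCN, LUM and PDGFRA) made the largest sums, at 12750 to 13038 CPM in normal, 102575 to 106724 in defect, 55706 to 55911 in implantation A, 91699 to 93157 in implantation B and 11966 to 12008 in ECs+ implantation. In bulk tissue, fewer cells of a type and less RNA per cell cannot be told apart.

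Per length, the calcium-activated channel gene KCNN3 was the most abundant member in each group (the defect group being ordered by defect 3). KCNN3 encodes a small-conductance channel known from endothelium, and the gene lies on chromosome 4, at 94913631 to 95112845 of Sscrofa11.1. It reached 46.6 ± 4.48 TPM in normal tissue (mean ± SD, n = 3), well above the next gene, KCNH3 at 17.0 ± 0.507. KCNK3 stood at 10.3 ± 0.979, below each KCNH3 library. In implantation A the order was KCNN3, KCNK3 and KCNK1. In implantation B, KCNN3 at 13.7 ± 1.36, KCNK1 at 12.8 ± 0.988 and KCNC4 at 12.1 ± 1.36 TPM lay within each other's spread. In ECs+ implantation KCNN3 again stood alone at 17.5 ± 0.393, with KCNH3 next at 6.25 ± 0.923.

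**Figure D1:**
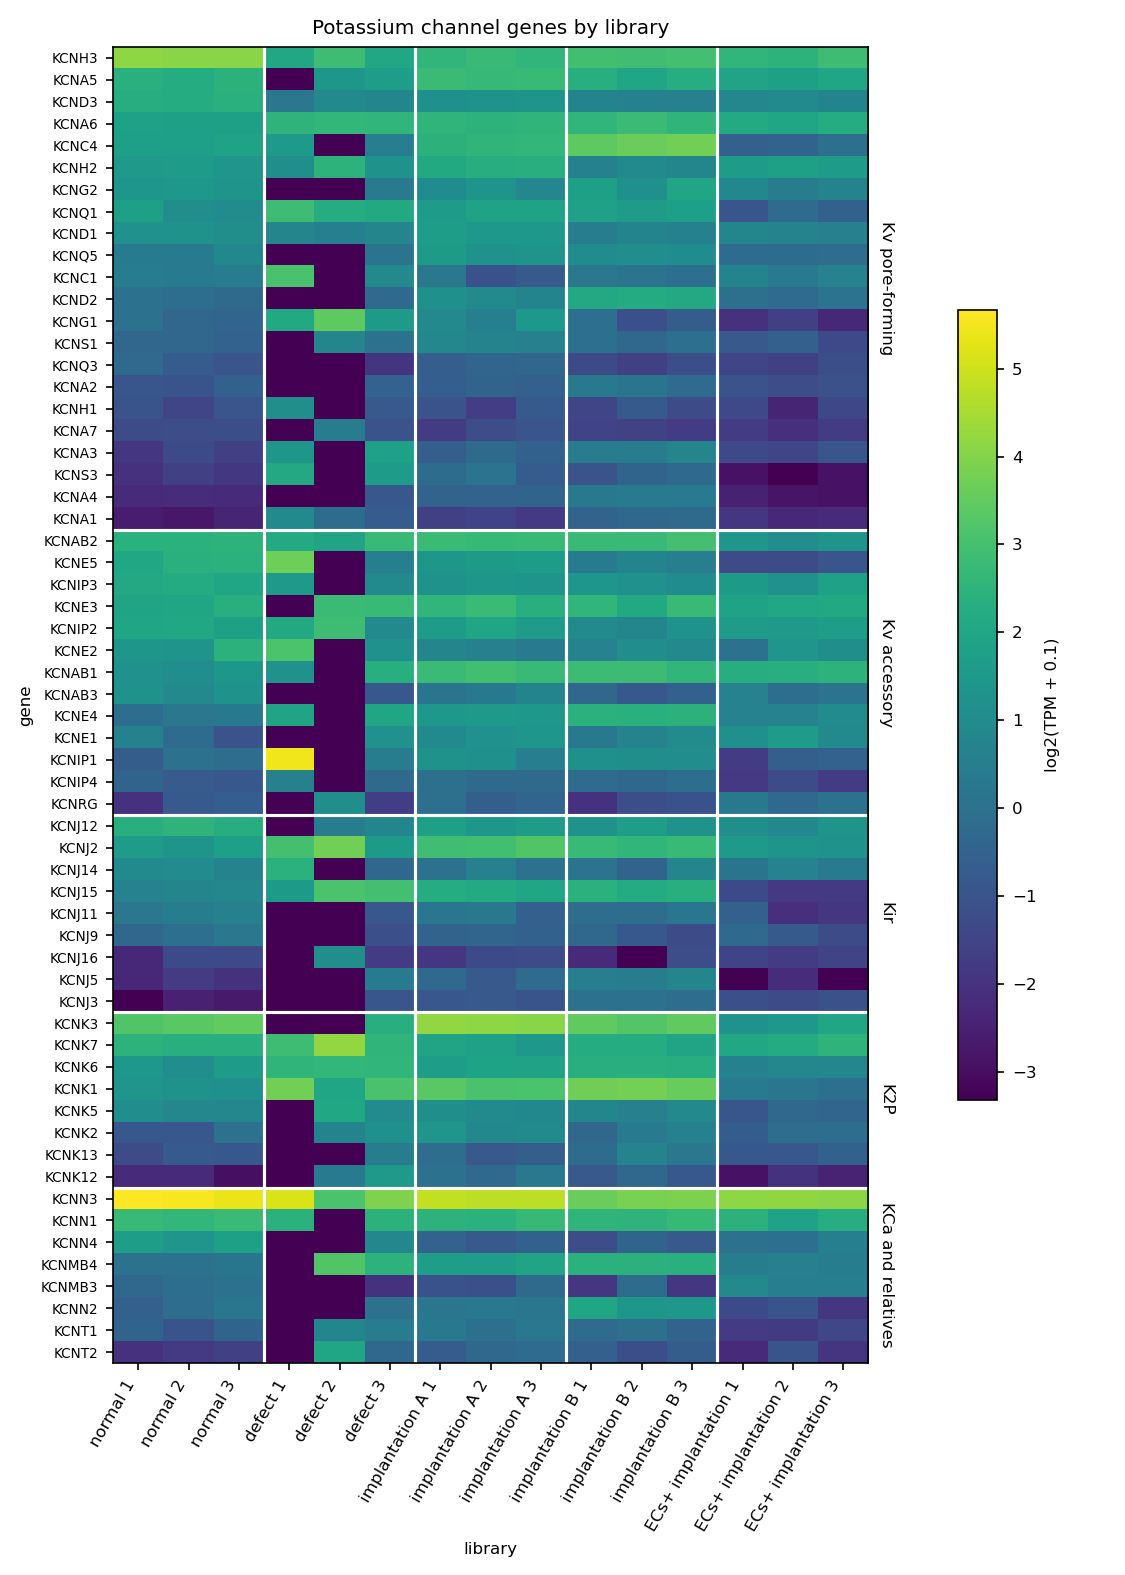
Level of 60 measured genes (rows, grouped by family and ordered by their normal mean) in the 15 libraries (columns), as log2(TPM + 0.1) on the colour scale. KCNN3 is the brightest row of the last family in each column but defect 2, where KCNMB4 is brighter, and the dark cells of defect 1 and 2 are genes with no count in these shallow libraries.

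Summed over the 91 members, the TPM were 198 ± 3.19 in normal, 180.5 ± 39.0 in defect, 204 ± 2.68 in implantation A, 186 ± 4.02 in implantation B and 111 ± 5.04 in ECs+ implantation (mean ± SD, n = 3). The families shared this total differently. The KCa family stood at 59.8 ± 3.91 TPM in normal, 40.7 ± 1.06 in implantation A and 30.2 ± 1.08 in implantation B, while the K2P family stood at 23.8 ± 0.985, 39.0 ± 2.89 and 37.3 ± 0.696 in the same groups. In TPM, each of the 5 families was at its lowest group mean in ECs+ implantation, with Kv pore-forming genes at 37.1 ± 2.0 TPM, Kir at 8.14 ± 0.665 and K2P at 12.9 ± 2.10. In CPM this held, among the fully sequenced groups, only for Kv pore-forming (141 ± 5.50), Kir (34.5 ± 3.01) and K2P genes (26.9 ± 3.63). The KCa family turned, at 105 ± 1.64 CPM in ECs+ implantation against 67.7 ± 0.863 in implantation B, and the accessory family was lowest in normal, at 61.0 ± 4.61 against 66.3 ± 4.46 CPM, within the spread of the libraries. All members together made 374 ± 12.8 CPM in ECs+ implantation, 521 ± 6.08 in normal, 463 ± 4.88 in implantation A, 412 ± 3.08 in implantation B and 349.8 ± 9.33 in defect. These sums are a description with no test. The deposited TPM of ECs+ implantation sit lower than its counts: over the 61 members tested, the ratio of mean TPM to implantation B was a median of 0.26 below the fitted fold change on the log2 scale. The corresponding offset for implantation A over normal was 0.11 upward. The ratio of TPM to CPM varied 1.44-fold over the 13 deep libraries in the median member, and more than 1.75-fold in 10 members, among them KCNG1 (4.44), KCNK2 (2.56), KCNJ2 (2.25), KCNAB2 (2.04) and KCNN3 (1.86). Fold changes and tests below therefore come from the counts, and TPM show the levels and whether libraries overlap.

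**Figure D2:**
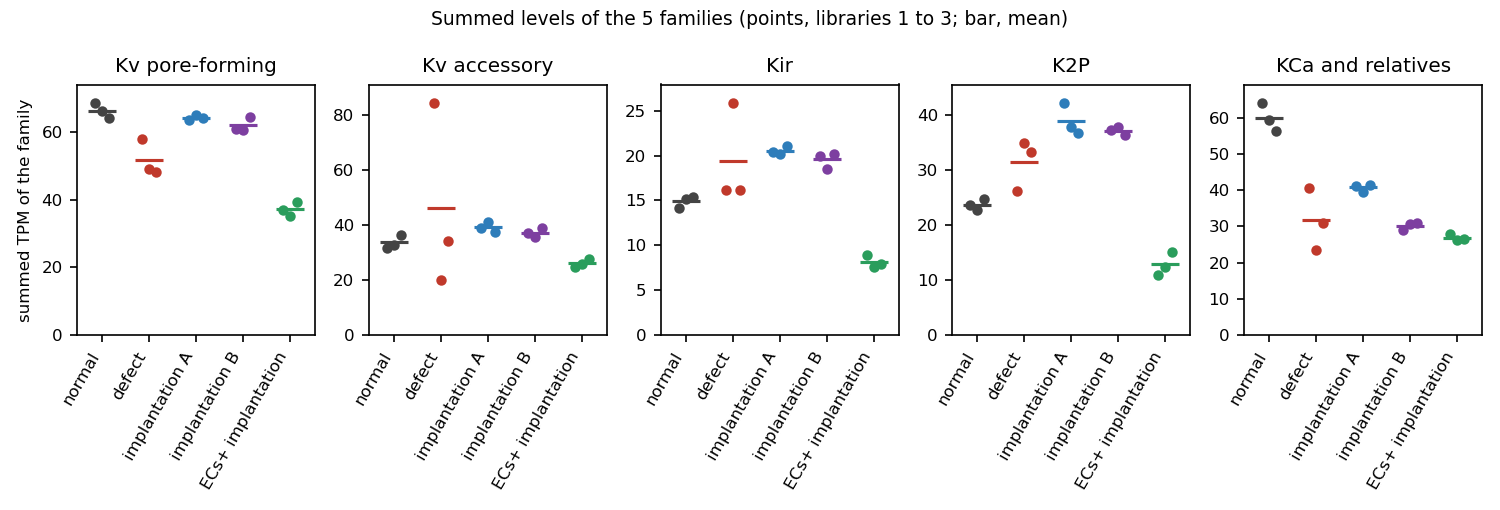
Summed TPM of each family (vertical axes, each from 0) in the 5 groups, with a point for each library and a bar for the mean. KCa is highest in normal, K2P and Kir are higher in implantation A and B than in normal, and each family's bar is lowest in ECs+ implantation on this scale, which for KCa and Kv accessory genes does not hold in CPM.

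Implantation A and normal tissue, both fully sequenced, differed at most members. By edgeR's quasi-likelihood test at an adjusted p under 0.05, 30 of 62 measured members were higher in implantation A and 19 lower. That is 48.4% and 30.6%, against 32.2% higher and 32.3% lower of the 17855 genes tested. The median log2 fold change was 0.30 over the members and -0.02 over all genes. By family, the higher and lower members were 12 and 5 of 24 Kv pore-forming genes, 6 and 5 of 13 accessory genes, 4 and 4 of 9 Kir genes, 5 and 1 of 8 K2P genes, and 3 and 4 of 8 KCa genes. Changes of at least 2-fold numbered 20 upward and 5 downward, but they were not counted over all genes, so nothing is read from this split. DESeq2 called 15 members higher and 11 lower on the same 9 libraries, against 3352 and 3584 of 16760 genes. When only these 6 libraries were fitted, it called 25 higher and 15 lower, against 5486 and 5087 of 17728 genes. Cell type markers moved in the same comparison. Fibroblast markers were higher in implantation A (5 of 5, median log2 fold change 1.65), as were those of smooth muscle (7 of 8), Schwann cells and nerve (7 of 8), keratinocytes and urothelium (6 of 7) and secretory epithelium (5 of 6), and endothelial markers were lower (8 of 8). Their part in the members' counts was not tested here or in the comparisons that follow.

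ECs+ implantation differed from implantation B mostly in the opposite direction. Of 61 members tested, 14 were higher in ECs+ implantation (23%) and 31 lower (50.8%), against 37.8% and 38.1% of 17204 genes. The median log2 fold change was -0.64 over the members and 0.02 over all genes. Lower members were 11 of 23 Kv pore-forming genes, 5 of 13 accessory genes, 5 of 9 Kir genes, 6 of 8 K2P genes and 4 of 8 KCa genes, and higher ones 6, 4, 0, 1 and 3. The 0 of Kir includes 0 members higher at an unadjusted p under 0.05 and 0 by DESeq2. The 6 tested keratinocyte and urothelium markers were each lower in ECs+ implantation with a median log2 fold change of -9.11, 6 of 6 macrophage markers were lower (median -1.73), and 7 of 8 endothelial markers were higher (median 1.34). Fibroblast markers were lower too (5 of 5, median -1.63), as were those of Schwann cells and nerve (6 of 8) and secretory epithelium (5 of 6), and 6 of 8 smooth muscle markers were higher.

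The comparison of implantation A with normal and that of ECs+ implantation with implantation B share no library. Of the 36 members called in both, 32 changed in opposite directions, or 88.9%, and over all 9034 genes called in both the share was 78.5%. Of 29 members higher in implantation A and tested in both, 21 were lower in ECs+ implantation, and over all genes 3768 of 5659. Of 19 lower in implantation A, 11 were higher in ECs+ implantation, and over all genes 3327 of 5519. The 4 that kept their direction were KCNH2 and KCNRG (higher in both) and KCNJ11 and KCNE5 (lower in both).

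**Figure D3:**
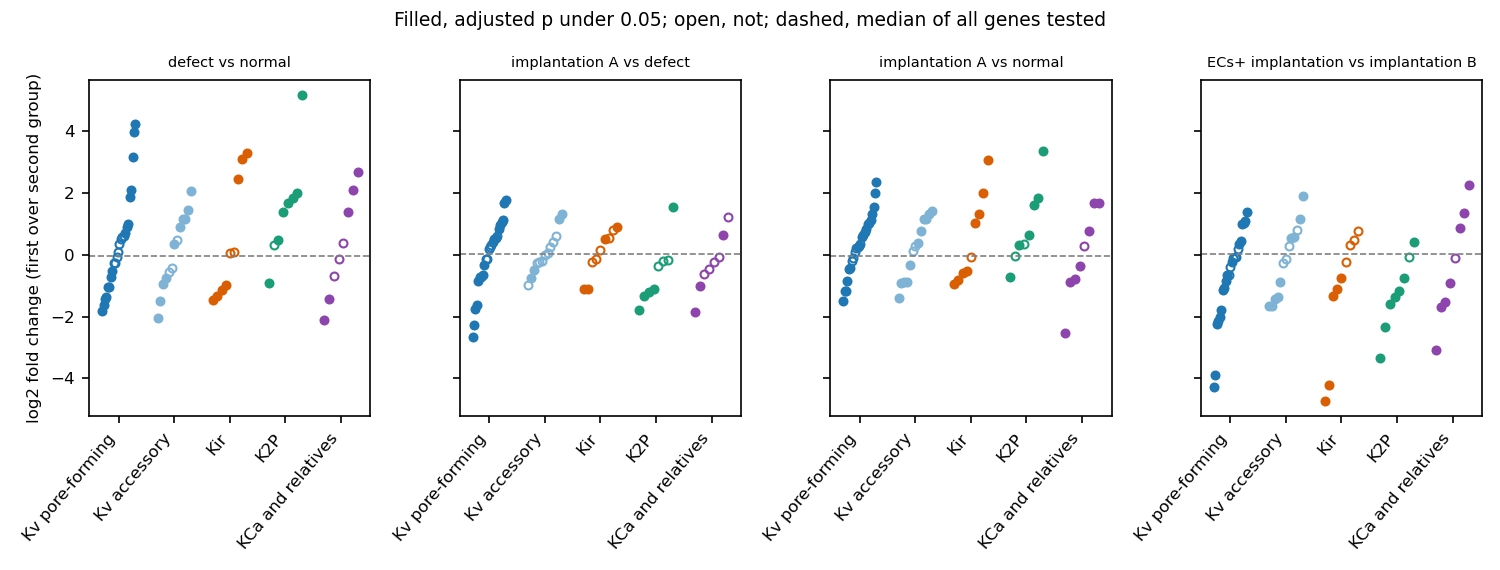
Log2 fold change (vertical axis) of the tested members in the 4 comparisons of the design, by family, filled where the adjusted p is under 0.05 and open where not, with a dashed line at the median of all genes tested. K2P points lie mostly above the line in implantation A vs normal and below it in ECs+ implantation vs implantation B, where no called Kir gene is above it.

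The KCNQ genes encode voltage-gated channels that open near the resting potential and hold vascular smooth muscle polarised. KCNQ5, a member found in artery walls, measured 1.2, 1.16 and 1.74 TPM in normal, 0, 0 and 0.991 in defect, 2.87, 2.38 and 2.41 in implantation A, 1.97, 2.01 and 1.96 in implantation B and 0.785, 0.802 and 0.821 in ECs+ implantation. It was higher in implantation A than in normal without overlap, by 0.84 ± 0.15 (adjusted p = 6.16e-07). In ECs+ implantation it was below all implantation B libraries, by -1.09 ± 0.15 (adjusted p = 7.35e-09).

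KCNQ1, a relative that repolarises heart muscle and serves potassium transport in epithelia, measured 3.31, 2.08 and 1.94 TPM in normal, 7.25, 4.66 and 4.26 in defect, 3.02, 3.53 and 3.55 in implantation A, 3.45, 2.98 and 3.29 in implantation B and 0.432, 0.775 and 0.586 in ECs+ implantation. The libraries of normal and implantation A overlapped and the difference did not pass the test, at 0.34 ± 0.16 (adjusted p = 0.0553). It passed without normal 1, at 0.64 (adjusted p = 0.00124), and without implantation A 1, at 0.42 (adjusted p = 0.0433). Each ECs+ implantation library was under 1 TPM and each implantation B library near 3, a log2 fold change of -2.15 ± 0.22 (adjusted p = 3.2e-13). The markers of keratinocytes and urothelium fell in the same libraries, as did those of fibroblasts and macrophages, and their part was not tested. KCNQ3, known from neurons, stood at 0.559 ± 0.166 TPM in normal and 0.633 ± 0.0605 in implantation A, which did not pass the test (0.08 ± 0.18, adjusted p = 0.698).

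KCNA5 encodes a delayed rectifier of atrial and vascular muscle (chromosome 5, 65439336 to 65442207). It measured 5.16, 4.68 and 5.38 TPM in normal, 0, 2.60 and 3.11 in defect, 6.95, 6.37 and 6.76 in implantation A, 4.86, 3.91 and 4.78 in implantation B and 3.73, 3.36 and 3.8 in ECs+ implantation. Implantation A was above normal in each library, but the fold was small, at 0.30 ± 0.12 (adjusted p = 0.0316). This call was lost without implantation A 1 (0.27), implantation A 3 (0.29) or normal 2 (0.24). ECs+ implantation lay just below implantation B in TPM, while the counts gave -0.06 ± 0.13 (adjusted p = 0.676). KCNA2, a delayed rectifier that can join it in one channel, measured 0.425, 0.401 and 0.593 TPM in normal, 0, 0 and 0.617 in defect, 0.548, 0.619 and 0.577 in implantation A, 1.15, 0.987 and 0.787 in implantation B and 0.388, 0.341 and 0.367 in ECs+ implantation. Normal and implantation A overlapped (0.21 ± 0.18, adjusted p = 0.307). ECs+ implantation was below implantation B in all 3 libraries, by -1.14 ± 0.16 (adjusted p = 1.56e-08).

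KCNA6, whose gene lies on chromosome 5 beside KCNA5 and KCNA1, measured 3.45, 3.38 and 3.37 TPM in normal, 5.70, 6.02 and 5.87 in defect, 5.74, 5.54 and 5.73 in implantation A, 5.93, 6.83 and 5.83 in implantation B and 4.43, 3.92 and 4.67 in ECs+ implantation. The defect values of KCNA6 rest on 4 and 5 counts in defect 1 and 2, too few to read how close the libraries lie. Normal is lower than every other group. The log2 fold change of implantation A vs normal was 0.57 ± 0.097 (adjusted p = 2.88e-07). The genes KCNA1, KCNA3 and KCNA4 were scarce in normal tissue, at 0.0681 ± 0.0212, 0.233 ± 0.0703 and 0.113 ± 0.00769 TPM. KCNA3 encodes a channel known from T cells and macrophages, and KCNA4 one of rapidly inactivating current. KCNA3 measured 0.169, 0.308 and 0.223 TPM in normal, 2.61, 0 and 3.42 in defect, 0.557, 0.757 and 0.585 in implantation A, 1.27, 1.30 and 1.61 in implantation B and 0.308, 0.269 and 0.427 in ECs+ implantation. It is highest in defect 3, higher in implantation A than in normal (1.32 ± 0.37, adjusted p = 0.00076) and lower in ECs+ implantation than in implantation B (-1.79 ± 0.31, adjusted p = 3.78e-07), without overlap in either pair. Macrophage markers (6 of 6) and T cell markers (4 of 4) were lower in ECs+ implantation too. In implantation A vs normal, 2 macrophage markers were higher and 2 lower (median -0.07). Of the T cell markers, 0 were higher and 1 lower there (median -0.31). The part of either list was not tested. KCNA4 rose in implantation A (2.36 ± 0.32, adjusted p = 2.4e-11) and fell from 1.14, 1.19 and 1.24 TPM in implantation B to 0.0775, 0.0393 and 0.0365 in ECs+ implantation, a log2 fold change of -4.29 ± 0.40 (adjusted p = 1.45e-18).

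KCNC4, a fast-inactivating channel, showed the smallest p of all members in ECs+ implantation vs implantation B. The gene (chromosome 4, 109885116 to 109908518) measured 3.24, 3.28 and 3.51 TPM in normal, 2.78, 0 and 1.35 in defect, 5.39, 5.80 and 6.02 in implantation A, 10.8, 12.1 and 13.5 in implantation B and 0.576, 0.623 and 0.892 in ECs+ implantation. Of the fully sequenced groups, implantation B was highest and ECs+ implantation lowest, with implantation A and normal between them in separate ranges. The log2 fold change was -3.90 ± 0.14 (adjusted p = 1.42e-30) in ECs+ implantation vs implantation B, 14.9 times lower, and 0.74 ± 0.11 (adjusted p = 3.49e-09) in implantation A vs normal. Keratinocyte and urothelium markers dropped in the same libraries, from 1872 to 1905 CPM to 3.26 to 3.96 CPM, and fibroblast markers from 91699 to 93157 CPM to 11966 to 12008 CPM. Among the fully sequenced groups, fibroblast markers also ran from implantation B through implantation A down to normal and ECs+ implantation. In mean TPM several members did so, among them KCNC4, KCND2, KCNE4, KCNMB4, KCNK1, KCNJ15, KCNA4, KCNK6 and KCNN2. Of these, KCND2, KCNE4 and KCNMB4 were higher in ECs+ implantation than in normal, and the others, like the marker sum, lower. In defect the fibroblast markers were highest, at 102575 to 106724 CPM. There KCNC4 and KCND2 (1.35 and 0.734 TPM in defect 3) lay below normal, and KCNE4 and KCNMB4 (3.84 and 5.52) above it. The part of either list was not tested.

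The 3 KCND genes encode channels of transient outward (A-type) current. KCND2 measured 0.959, 0.842 and 0.771 TPM in normal, 0, 0 and 0.734 in defect, 2.17, 1.81 and 1.55 in implantation A, 4.15, 4.49 and 4.21 in implantation B and 0.894, 0.785 and 0.968 in ECs+ implantation. It was higher in implantation A than in normal (1.0 ± 0.18, adjusted p = 5.19e-07), highest in implantation B, and lower in ECs+ implantation than in implantation B (-2.01 ± 0.14, adjusted p = 1.5e-19), with no overlap in these pairs. KCND3 measured 4.69, 4.64 and 5.14 TPM in normal, 1.09, 1.84 and 1.63 in defect, 2.16, 2.29 and 2.44 in implantation A, 1.55, 1.45 and 1.41 in implantation B and 1.69, 1.83 and 1.55 in ECs+ implantation. Here normal libraries were highest and stood above those of every other group. KCND3 was lower in implantation A by -1.17 ± 0.10 (adjusted p = 1.07e-17) and a little higher in ECs+ implantation than in implantation B, by 0.46 ± 0.13 (adjusted p = 0.00099). KCND1 did not pass the test in implantation A vs normal (0.24 ± 0.12, adjusted p = 0.076).

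KCNH3, a channel of the ether-a-go-go group known mainly from forebrain neurons, was the second most abundant member in normal tissue (chromosome 5, 15494649 to 15517024). It measured 17.6, 16.8 and 16.7 TPM in normal, 4.03, 7.31 and 3.97 in defect, 5.90, 6.64 and 5.99 in implantation A, 7.68, 7.43 and 7.71 in implantation B and 5.97, 5.50 and 7.28 in ECs+ implantation. In TPM, the 3 normal libraries were more than 2 times as high as any other library of the series. In counts per library size this did not hold for each ECs+ implantation library. The fold against implantation A was -1.5 ± 0.087 (adjusted p = 7.54e-28), the smallest p of all members there. ECs+ implantation did not differ from implantation B beyond the test's threshold (-0.07 ± 0.090, adjusted p = 0.462). KCNH2, which carries the rapid repolarising current of heart muscle, was higher in implantation A (0.65 ± 0.14, adjusted p = 2.2e-05) and in ECs+ implantation (1.0 ± 0.16, adjusted p = 8.84e-08). Its TPM were 2.80, 2.97 and 2.46 in normal, 4.25, 4.70 and 4.84 in implantation A, 1.45, 1.88 and 1.64 in implantation B and 3.06, 3.35 and 3.06 in ECs+ implantation, without overlap within either pair.

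The KCNG and KCNS genes encode silent subunits that modify other Kv channels. KCNS3, one of them, measured 0.140, 0.222 and 0.177 TPM in normal, 4.16, 0 and 2.92 in defect, 0.795, 0.973 and 0.508 in implantation A, 0.387, 0.644 and 0.744 in implantation B and 0.0352, 0 and 0.0342 in ECs+ implantation. It rose in implantation A (2.0 ± 0.46, adjusted p = 1.62e-05). It did not enter the fit of ECs+ implantation and implantation B because of low counts, 43 in the 3 implantation B libraries and 2 in the 3 ECs+ libraries. The ratio of these counts, each divided by library size with TMM scaling, was 24.4 (95% exact interval 6.37 to 208, counting error only). KCNS1 was higher in implantation A (1.12 ± 0.21, adjusted p = 1.54e-06) and KCNG1 too (1.03 ± 0.25, adjusted p = 0.000164).

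**Figure D4:**
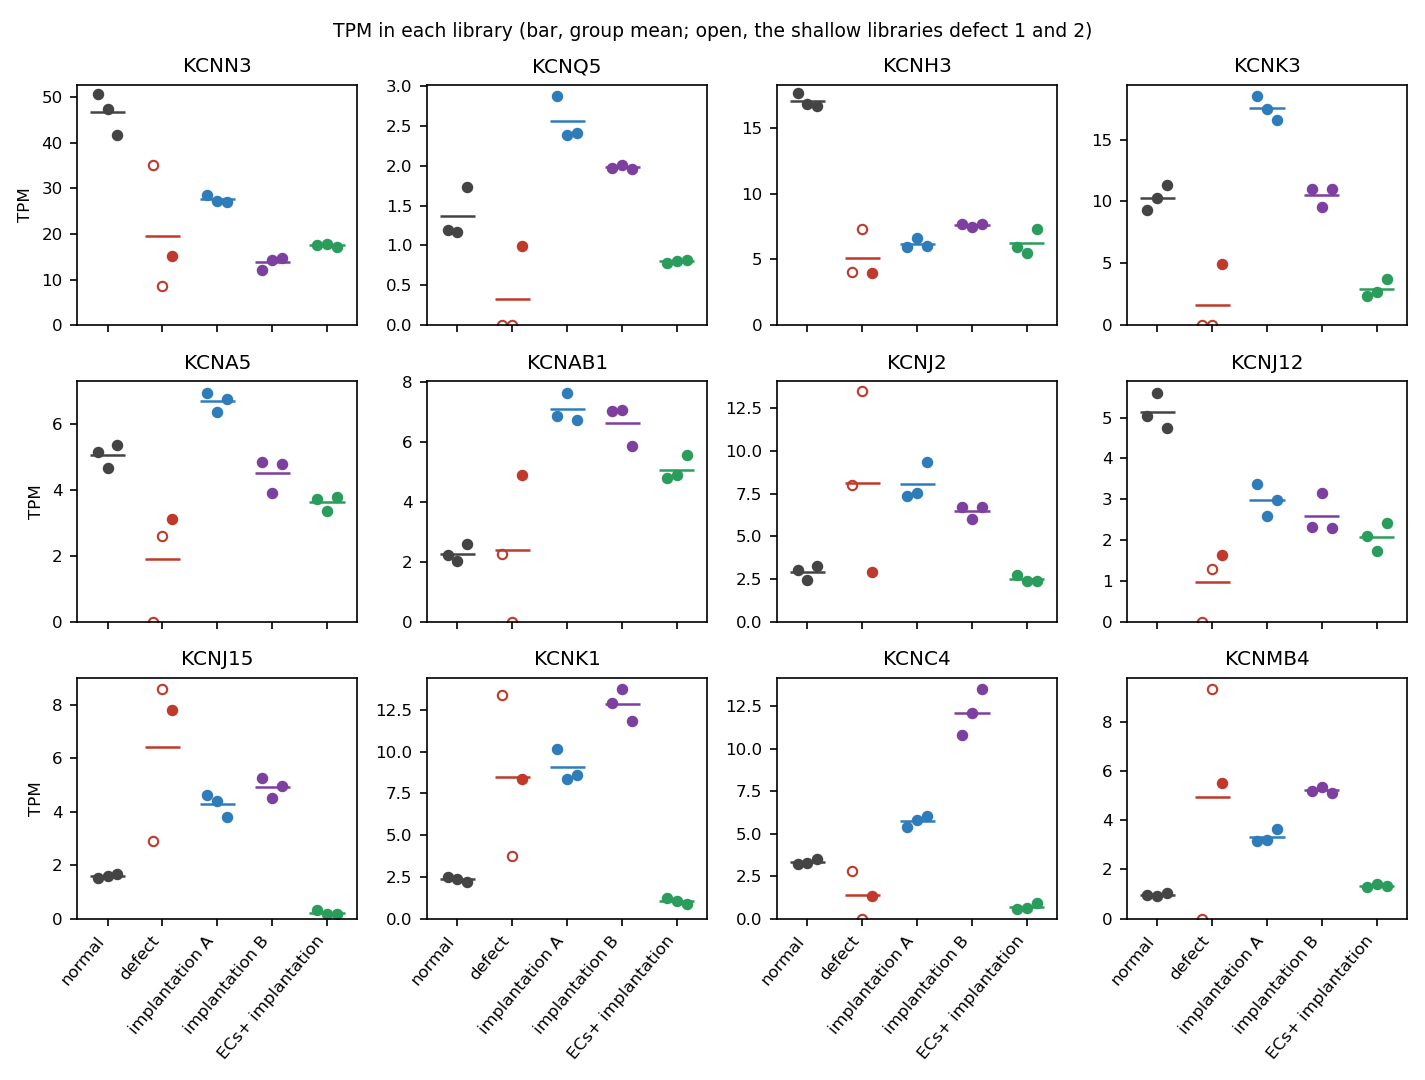
TPM (vertical axes, each from 0) of 12 members in every library of the 5 groups, with bars at group means and open points for the shallow libraries defect 1 and 2. KCNN3, KCNH3 and KCNJ12 are highest in normal, KCNAB1 is low only there among the fully sequenced groups, and KCNC4, KCNK1 and KCNJ15 are near 0 or 1 TPM in ECs+ implantation.

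Accessory subunits change how Kv channels open or reach the membrane. KCNAB1 encodes a cytoplasmic beta subunit of KCNA channels with the fold of an aldo-keto reductase (chromosome 13, 95981820 to 96375089, overlapping the SSR3 gene). It measured 2.22, 2.03 and 2.59 TPM in normal, 2.26, 0 and 4.91 in defect, 6.88, 7.66 and 6.76 in implantation A, 7.03, 7.07 and 5.87 in implantation B and 4.80, 4.89 and 5.57 in ECs+ implantation. Normal libraries were lowest of the 4 fully sequenced groups, and implantation A stood clear above them at 1.43 ± 0.12 (adjusted p = 1.07e-17). ECs+ implantation and implantation B did not differ beyond the threshold in counts (-0.13 ± 0.089, adjusted p = 0.191). KCNAB2, a second beta subunit, measured 5.30, 5.28 and 5.51 TPM in normal, 4.42, 3.73 and 6.67 in defect, 6.83, 6.38 and 6.76 in implantation A, 6.73, 6.54 and 7.76 in implantation B and 2.53, 2.05 and 2.42 in ECs+ implantation. It did not pass the test in implantation A vs normal (0.12 ± 0.10, adjusted p = 0.282), although the TPM do not overlap. It was lower in ECs+ implantation than in implantation B by -0.87 ± 0.10 (adjusted p = 1.14e-10). KCNAB3, the third, measured 2.27, 1.77 and 2.35 TPM in normal, 0, 0 and 0.451 in defect, 0.986, 1.14 and 1.55 in implantation A, 0.682, 0.459 and 0.596 in implantation B and 1.47, 0.852 and 0.964 in ECs+ implantation. It was lower in implantation A (-0.90 ± 0.22, adjusted p = 0.000168) and higher in ECs+ implantation (1.17 ± 0.32, adjusted p = 0.00074), each without overlap.

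The KCNE genes encode small single-pass subunits that slow, speed or silence Kv channels, KCNQ channels above all. KCNE4, an inhibitory one, measured 0.845, 1.08 and 1.13 TPM in normal, 3.72, 0 and 3.84 in defect, 2.70, 2.79 and 2.67 in implantation A, 5.21, 5.15 and 5.37 in implantation B and 1.5, 1.47 and 1.91 in ECs+ implantation. It was higher in implantation A than in normal in every library (1.31 ± 0.17, adjusted p = 8.76e-11) and highest in implantation B. ECs+ implantation lay below all implantation B libraries (-1.42 ± 0.12, adjusted p = 4.5e-15). KCNE5 measured 4.05, 5.17 and 5.30 TPM in normal, 12.6, 0 and 1.36 in defect, 2.62, 2.88 and 3.04 in implantation A, 1.18, 1.58 and 1.33 in implantation B and 0.323, 0.330 and 0.418 in ECs+ implantation. Normal was highest among the fully sequenced groups, implantation A lower (-0.88 ± 0.21, adjusted p = 0.000109), implantation B lower again and ECs+ implantation lowest (-1.66 ± 0.45, adjusted p = 0.000485 against implantation B). KCNE1 and KCNE3 were higher in implantation A at 1.18 ± 0.41 and 0.40 ± 0.15 and KCNE2 lower at -1.39 ± 0.30. The calls of KCNE1 and KCNE3 were lost without single libraries, KCNE1 without normal 3 (0.83) and KCNE3 without implantation A 2, normal 1 or normal 2 (0.30, 0.33 and 0.37).

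The KCNIP genes encode calcium-binding partners of KCND channels. KCNIP3 was lower in implantation A (2.29, 2.58 and 2.44 TPM) than in normal (4.24, 4.51 and 3.81), by -0.91 ± 0.15 (adjusted p = 1.21e-07), and higher in ECs+ implantation than in implantation B by 0.59 ± 0.16 (adjusted p = 0.00119). KCNIP1, which overlaps KCNMB1 so that their reads cannot be told apart without strand, was higher in implantation A (1.17 ± 0.30, adjusted p = 0.000365) and lower in ECs+ implantation (-1.64 ± 0.37, adjusted p = 5.28e-05). KCNRG, a soluble protein that hinders assembly of Kv channels and whose gene overlaps TRIM13, was higher in ECs+ implantation (1.13, 0.745 and 0.925 TPM) than in implantation B (0.149, 0.347 and 0.386), by 1.92 ± 0.25 (adjusted p = 1.1e-09).

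Among inward rectifiers, KCNJ2 and KCNJ12 encode the strong rectifiers that set the resting potential of muscle and endothelium. KCNJ2 (chromosome 12, 10351959 to 10380631) measured 3.04, 2.43 and 3.28 TPM in normal, 8.0, 13.5 and 2.91 in defect, 7.39, 7.52 and 9.36 in implantation A, 6.70, 5.99 and 6.71 in implantation B and 2.73, 2.41 and 2.37 in ECs+ implantation. Implantation A and B were higher than normal and ECs+ implantation, with no overlap. The fold was 1.02 ± 0.10 (adjusted p = 2.22e-15) in implantation A vs normal and -0.75 ± 0.089 (adjusted p = 1.6e-10) in ECs+ implantation vs implantation B. KCNJ12 (chromosome 12, 61424459 to 61511373) measured 5.05, 5.61 and 4.74 TPM in normal, 0, 1.30 and 1.65 in defect, 3.38, 2.58 and 2.97 in implantation A, 2.33, 3.14 and 2.29 in implantation B and 2.11, 1.73 and 2.43 in ECs+ implantation. Normal libraries were highest and did not overlap with any other group. It was lower in implantation A (-0.95 ± 0.12, adjusted p = 6.03e-11) and did not pass the test between ECs+ implantation and implantation B (-0.23 ± 0.14, adjusted p = 0.127), although it did without ECs+ implantation 3 (-0.35, adjusted p = 0.0403). The 2 strong rectifiers thus changed in opposite directions between normal and implantation A. Each overlaps another annotated protein-coding gene, and reads cannot be told apart where the genes overlap.

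KCNJ15, a rectifier known from epithelia, had the second smallest p of all members in ECs+ implantation vs implantation B (chromosome 13, 201894036 to 201941449). It measured 1.5, 1.61 and 1.68 TPM in normal, 2.90, 8.58 and 7.81 in defect, 4.61, 4.40 and 3.8 in implantation A, 5.24, 4.5 and 4.97 in implantation B and 0.307, 0.182 and 0.188 in ECs+ implantation. Each ECs+ implantation library lay under 0.4 TPM, each normal library under 2, and each implantation A or B library above 3. The log2 fold change was -4.23 ± 0.21 (adjusted p = 1.55e-28) in ECs+ implantation vs implantation B, 18.7 times lower, and 1.33 ± 0.13 (adjusted p = 1.77e-16) in implantation A vs normal. Keratinocyte and urothelium markers moved in the same directions in both comparisons (919 to 964 CPM in normal, 2185 to 2210 in implantation A). So did fibroblast markers (5 of 5 in each), and the part of either list was not tested.

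KCNJ11 encodes the pore of ATP-sensitive channels other than those of KCNJ8. It measured 1.08, 1.27 and 1.39 TPM in normal, 0, 0 and 0.443 in defect, 1.07, 1.14 and 0.572 in implantation A, 0.837, 0.840 and 1.05 in implantation B and 0.586, 0.140 and 0.171 in ECs+ implantation. Only implantation A 2 lay within the range of the normal libraries, the other 2 below it. The fold was -0.53 ± 0.23 (adjusted p = 0.0349), a call lost without implantation A 3 (-0.28), normal 2 (-0.51) or normal 3 (-0.44). ECs+ implantation was lower than implantation B without overlap (-1.34 ± 0.37, adjusted p = 0.0011), and by -2.28 without ECs+ implantation 1. KCNJ3 and KCNJ5 encode partners in the G protein-gated channel of atrium and nerve. Both were higher in implantation A, by 3.08 ± 0.59 (adjusted p = 1.16e-08) for KCNJ3 and 1.99 ± 0.54 (adjusted p = 0.000155) for KCNJ5, from normal levels of 0.0458 ± 0.0409 and 0.149 ± 0.0494 TPM. KCNJ3 was lower in ECs+ implantation than in implantation B (-1.11 ± 0.28, adjusted p = 0.000302). For KCNJ5 the 3 ECs+ libraries held 3 counts and the implantation B libraries 78. Divided by library size with TMM scaling, the ratio was 29.6 (95% exact interval 9.75 to 146, counting error only).

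Channels of the K2P family leak potassium at all voltages and are tuned by pH, stretch and lipids. KCNK3, an acid-sensitive leak channel of pulmonary artery muscle, was their most abundant gene in normal (chromosome 3, 112322446 to 112359212). It measured 9.33, 10.3 and 11.3 TPM in normal, 0, 0 and 4.98 in defect, 18.5, 17.5 and 16.6 in implantation A, 11, 9.59 and 11 in implantation B and 2.36, 2.68 and 3.76 in ECs+ implantation. Implantation A was highest and ECs+ implantation lowest of the fully sequenced groups, with implantation B near normal. The fold was 0.66 ± 0.12 (adjusted p = 1.53e-06) in implantation A vs normal and -1.60 ± 0.17 (adjusted p = 9.2e-13) in ECs+ implantation vs implantation B. KCNK1, a weakly rectifying leak channel (chromosome 14, 57268064 to 57319338), measured 2.49, 2.38 and 2.18 TPM in normal, 13.4, 3.76 and 8.33 in defect, 10.2, 8.38 and 8.62 in implantation A, 12.9, 13.8 and 11.8 in implantation B and 1.24, 1.04 and 0.879 in ECs+ implantation. It was 3.57 times as high in implantation A as in normal (1.84 ± 0.17, adjusted p = 3.64e-18), and 10.2 times lower in ECs+ implantation than in implantation B (-3.35 ± 0.19, adjusted p = 7.4e-25), without overlap. Most markers of keratinocytes and urothelium, fibroblasts, secretory epithelium, and Schwann cells and nerve moved in the same directions. The part of these lists was not tested.

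KCNK6, a relative of KCNK1 with a part in vascular pressure, measured 2.65, 2.03 and 3.00 TPM in normal, 5.74, 6.06 and 5.87 in defect, 3.08, 3.59 and 3.51 in implantation A, 4.91, 5.04 and 4.79 in implantation B and 1.43, 1.68 and 1.68 in ECs+ implantation. The 3 defect libraries were highest, but defect 1 and 2 rest on 4 and 5 counts, too few to read how close they lie. Implantation A was only a little above normal, at 0.30 ± 0.12 (adjusted p = 0.0236), a call lost without implantation A 2 (0.27), implantation A 3 (0.28) or normal 2 (0.16). ECs+ implantation lay below all implantation B libraries (-1.36 ± 0.11, adjusted p = 3.78e-16). KCNK5, an alkaline-activated channel, measured 2.02, 1.67 and 1.69 TPM in normal, 0, 4.10 and 1.94 in defect, 2.12, 1.81 and 1.74 in implantation A, 1.64, 1.39 and 1.80 in implantation B and 0.429, 0.709 and 0.655 in ECs+ implantation. Implantation A and normal overlapped, and ECs+ implantation was below both normal and implantation B (-1.17 ± 0.24, adjusted p = 1.88e-05 against implantation B).

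KCNK2, the stretch- and lipid-gated leak channel, measured 0.451, 0.436 and 0.934 TPM in normal, 0, 1.58 and 2.16 in defect, 2.48, 1.71 and 1.81 in implantation A, 0.681, 1.18 and 1.46 in implantation B and 0.535, 0.836 and 0.841 in ECs+ implantation. It was higher in implantation A than in normal without overlap (1.63 ± 0.26, adjusted p = 1.03e-08), while ECs+ implantation and implantation B overlapped (-0.07 ± 0.24, adjusted p = 0.791). KCNK12, a subunit that is mostly silent on its own, measured 0.108, 0.108 and 0.0306 TPM in normal, 0, 1.21 and 2.77 in defect, 0.946, 0.750 and 1.10 in implantation A, 0.465, 0.694 and 0.457 in implantation B and 0.0359, 0.147 and 0.0815 in ECs+ implantation. It was scarce in normal and in ECs+ implantation and above 0.4 TPM in each implantation A and B library. The fold was 3.37 ± 0.42 (adjusted p = 1.62e-15) in implantation A vs normal and -2.33 ± 0.42 (adjusted p = 5.4e-07) in ECs+ implantation vs implantation B. KCNK7 was the only K2P gene to be lower in implantation A (-0.73 ± 0.15, adjusted p = 2.4e-05) and the only one to be higher in ECs+ implantation (0.41 ± 0.14, adjusted p = 0.00757), the second a call lost without implantation B 3 (0.30) or ECs+ implantation 3 (0.27).

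In the KCa family, the small- and intermediate-conductance channels of endothelium, KCNN3 and KCNN4, are opened by calcium through calmodulin and spread hyperpolarisation from endothelium to muscle. KCNN3 measured 50.6, 47.4 and 41.8 TPM in normal, 35.2, 8.58 and 15.1 in defect, 28.6, 27.3 and 26.9 in implantation A, 12.2, 14.4 and 14.7 in implantation B and 17.6, 17.8 and 17.0 in ECs+ implantation. Each normal library was above 41 TPM and each implantation A library below 29. The fold was -0.78 ± 0.059 (adjusted p = 3.91e-21) in implantation A vs normal. ECs+ implantation was higher than implantation B without overlap, by 0.88 ± 0.048 (adjusted p = 2.03e-22), and below normal. Its TPM in ECs+ implantation were below those of implantation A, but its CPM overlapped, at 87.4 ± 1.0 and 88.7 ± 0.695. Endothelial markers summed to 4039 to 4214 CPM in normal, 2167 to 2196 in implantation A, 1525 to 1537 in implantation B and 3578 to 3662 in ECs+ implantation. On the same scale KCNN3 stood at 159 ± 1.87 CPM in normal and 40.4 ± 1.15 in implantation B, so both were highest in normal and lowest in implantation B of the fully sequenced groups, and the markers' part was not tested. The gene overlaps PMVK, so reads of the 2 cannot be told apart where they overlap.

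KCNN4 measured 3.21, 2.49 and 3.39 TPM in normal, 0, 0 and 1.70 in defect, 0.608, 0.476 and 0.585 in implantation A, 0.331, 0.652 and 0.472 in implantation B and 0.926, 0.865 and 1.37 in ECs+ implantation. Each normal library was above 2 TPM and each implantation A or B library below 0.7. The fold was -2.53 ± 0.31 (adjusted p = 1.64e-13) in implantation A vs normal and 1.37 ± 0.40 (adjusted p = 0.00133) in ECs+ implantation vs implantation B, without overlap in either pair. KCNN4 and KCNN3 thus moved in the same direction in both comparisons. KCNN2, known from neurons and atrium, measured 0.578, 0.817 and 1.05 TPM in normal, 0, 0 and 0.958 in defect, 1.06, 1.13 and 1.07 in implantation A, 3.81, 2.64 and 2.65 in implantation B and 0.301, 0.409 and 0.171 in ECs+ implantation. Implantation B stood above all other groups. The fold was -3.09 ± 0.30 (adjusted p = 1.82e-15) in ECs+ implantation vs implantation B, and did not pass the test in implantation A vs normal (0.30 ± 0.25, adjusted p = 0.283). KCNN1 was slightly lower in implantation A (-0.36 ± 0.14, adjusted p = 0.0198), a call lost without implantation A 1, implantation A 2, normal 1 or normal 3 (-0.33, -0.31, -0.33 and -0.32).

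The accessory genes of the large-conductance channel gave 2 patterns. KCNMB4, the beta subunit best known from neurons (chromosome 5, 34561990 to 34634241), measured 0.954, 0.926 and 1.04 TPM in normal, 0, 9.32 and 5.52 in defect, 3.14, 3.20 and 3.66 in implantation A, 5.21, 5.37 and 5.12 in implantation B and 1.30, 1.40 and 1.32 in ECs+ implantation. It was higher in implantation A and B than in normal and ECs+ implantation, with no overlap. The fold was 1.67 ± 0.18 (adjusted p = 3.69e-14) in implantation A vs normal and -1.70 ± 0.14 (adjusted p = 2.2e-16) in ECs+ implantation vs implantation B. KCNMB3 did the reverse in ECs+ implantation, with 1.76, 1.33 and 1.34 TPM against 0.169, 0.797 and 0.169 in implantation B (2.27 ± 0.45, adjusted p = 2.47e-06). This gene overlaps another annotated protein-coding gene. KCNT2, a sodium-activated channel, measured 0.141, 0.186 and 0.225 TPM in normal, 0, 3.85 and 0.707 in defect, 0.509, 0.727 and 0.779 in implantation A, 0.581, 0.352 and 0.524 in implantation B and 0.116, 0.404 and 0.157 in ECs+ implantation. It was higher in implantation A than in normal without overlap (1.67 ± 0.30, adjusted p = 2.03e-07). In ECs+ implantation it overlapped with implantation B (-0.92 ± 0.34, adjusted p = 0.0133), and this call was lost without implantation B 1, implantation B 3, ECs+ implantation 1 or ECs+ implantation 3 (-0.80, -0.87, -0.61 and -0.73), and was larger without ECs+ implantation 2 (-1.60). KCNT1, its relative, was higher in implantation A (0.77 ± 0.24, adjusted p = 0.00258) and lower in ECs+ implantation (-1.53 ± 0.33, adjusted p = 3.49e-05).

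**Figure D5:**
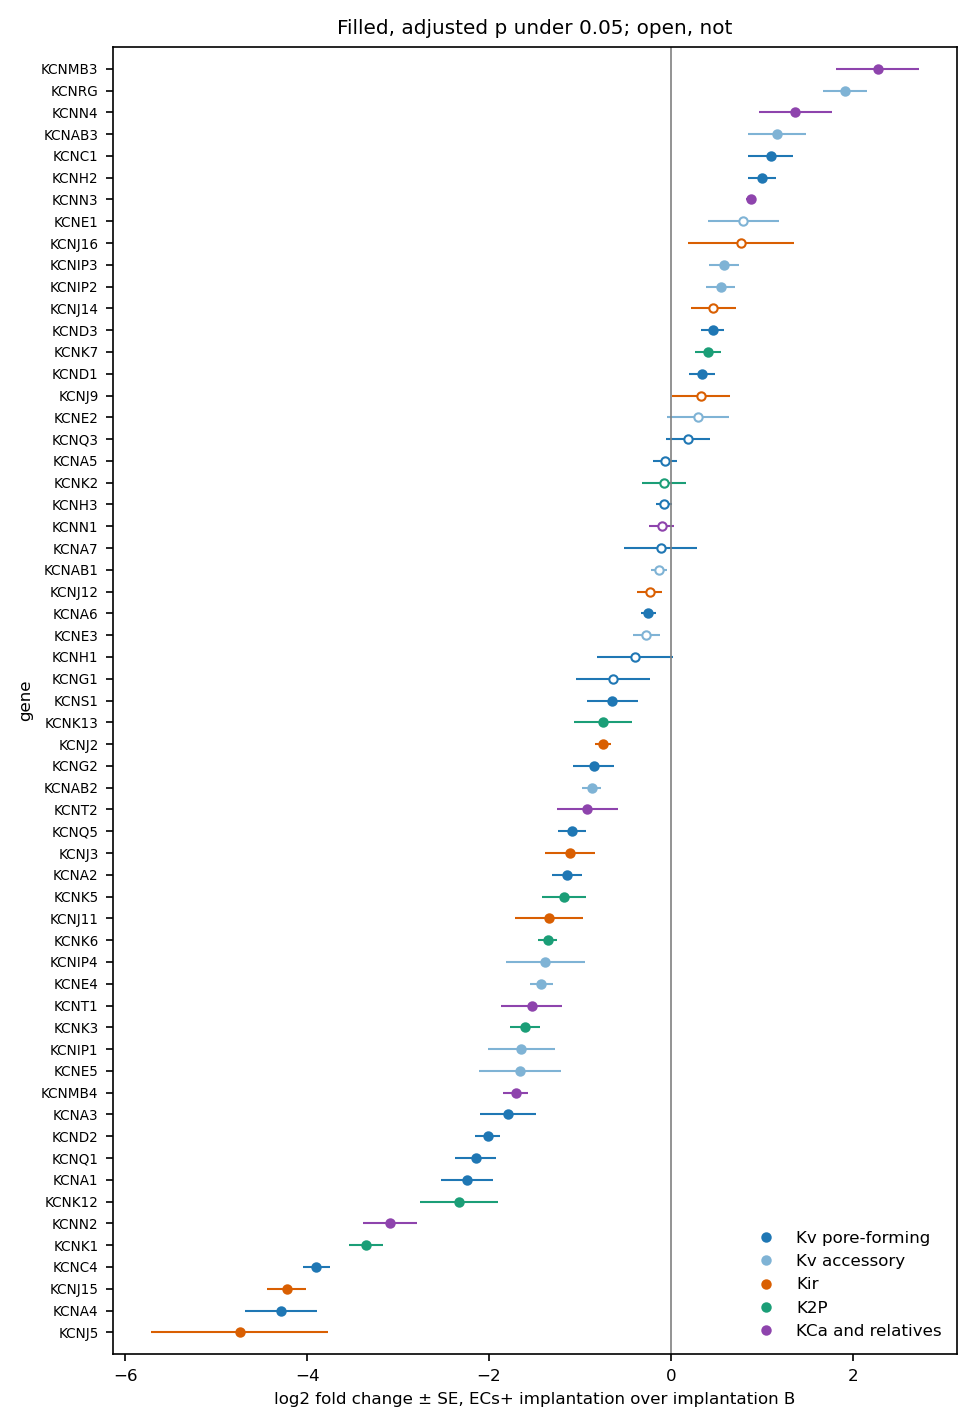
Log2 fold change of 59 tested members in ECs+ implantation over implantation B (horizontal axis, with the SE of the fit as bars), ordered by size and coloured by family, filled where the adjusted p is under 0.05. KCNJ5, KCNA4, KCNJ15, KCNC4 and KCNK1 lie farthest to the left, and KCNMB3 and KCNRG farthest to the right.

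Defect and normal tissue could be compared only with the limit of the shallow libraries. At face value, 26 of 62 members were higher in defect (41.9%, against 32% of all genes) and 19 lower (30.6%, against 31.9%). The median log2 fold change was 0.35 over the members and -0.05 over all genes. With scaling by library size alone the split was 21 higher and 23 lower, and the median of all genes moved to -0.41. Without defect 3, 5 members were called, 3 higher and 2 lower, against 1391 and 2130 of 18208 genes. DESeq2 called 23, 14 higher and 9 lower, against 3491 and 3969 of 16760 genes. K2P genes were 6 higher and 1 lower of 8, Kir genes 3 and 4 of 9, Kv pore-forming genes 8 and 8 of 24, accessory genes 6 and 4 of 13, and KCa genes 3 and 2 of 8. Fibroblast markers (5 of 5, median 3.41), macrophage markers (6 of 6) and keratinocyte and urothelium markers (5 of 7) were also higher in defect, and markers of endothelium (7 of 8) and secretory epithelium (6 of 6) lower.

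The 5 members that passed the test with and without defect 3 were KCNN3 and KCNH3, lower in defect, and KCNJ15, KCNA1 and KCNG1, higher. KCNN3 gave -1.42 ± 0.090 (adjusted p = 4.56e-25) with all libraries and -1.48 without defect 3. KCNH3 gave -1.82 ± 0.15 (adjusted p = 1.64e-20) and -1.55, and KCNJ15 gave 2.45 ± 0.15 (adjusted p = 9.52e-27) and 1.79. KCNA1, a Kv gene of axons, measured 0.0616, 0.0510 and 0.0918 TPM in normal and 1.89, 0.798 and 0.507 in defect, with 3.18 ± 0.43 (adjusted p = 7.18e-11) and 4.19. KCNG1, a silent Kv subunit, measured 0.918, 0.676 and 0.665 in normal and 4.26, 10.8 and 2.85 in defect, with 1.86 ± 0.31 (adjusted p = 2.11e-07) and 2.88. The groups did not overlap for these 5 genes. The values without defect 3 rest on few reads in defect 1 and 2. They were 2 and 1 counts for KCNA1, 1 and 3 for KCNG1, 2 and 4 for KCNH3, 2 and 7 for KCNJ15 and 15 and 9 for KCNN3.

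The calls of 6 other members in defect vs normal, given next, were lost without defect 3. KCND3 was lower in defect in all 3 libraries (-1.36 ± 0.17, adjusted p = 7.46e-12, and -1.74 without defect 3). KCNJ12 was lower too (-1.46 ± 0.21, adjusted p = 8.27e-10, then -2.71). KCNK6 and KCNA6 were higher in all 3 libraries, KCNK6 at 1.40 ± 0.15 (adjusted p = 1.94e-13), then 1.17, and KCNA6 at 0.89 ± 0.13 (adjusted p = 8.83e-09), then 0.59. KCNK1 was higher in defect at 2.02 ± 0.21 (adjusted p = 3.18e-14) and at 1.75 without defect 3. KCNMB4, absent from the counts of defect 1, gave 2.69 ± 0.21 (adjusted p = 1.89e-20), then 2.33.

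For genes of lower level the defect value is that of defect 3. KCNK12 had 0, 1.21 and 2.77 TPM in the defect libraries and a fold of 5.17 ± 0.43 (adjusted p = 3.57e-25), which became 2.92 and was not called without defect 3. KCNA3 gave 3.98 ± 0.38 (adjusted p = 2.08e-18), then 2.29. KCNE4 gave 2.07 ± 0.21 (adjusted p = 1.09e-14), then 0.70. KCNAB1 turned its sign, from 1.16 ± 0.17 (adjusted p = 1.15e-08) to -1.66, so no direction is read for it.

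Implantation A and defect differed at fewer members. Of 62, 14 were higher in implantation A (22.6%, against 20.4% of all genes) and 17 lower (27.4%, against 21.4%), with a median log2 fold change of -0.13 over the members and 0.02 over all genes. With scaling by library size alone, the split was 22 higher and 12 lower and the median of all genes 0.33. Without defect 3, 4 members were called, 3 higher and 1 lower, against 935 and 520 of 18208 genes. DESeq2 called 12, 4 higher and 8 lower, against 1941 and 1889 of 16068 genes. By family the higher and lower members were 8 and 7 of 24 Kv pore-forming genes, 2 and 2 of 13 accessory genes, 2 and 2 of 9 Kir genes, 1 and 4 of 8 K2P genes and 1 and 2 of 8 KCa genes. Markers of smooth muscle (8 of 8), secretory epithelium (6 of 6) and Schwann cells and nerve (6 of 8) were higher in implantation A, and those of fibroblasts (5 of 5, median -1.76) and macrophages (6 of 6) lower. Because both this comparison and the one with normal use the defect libraries, they are not independent.

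KCNK3 and KCNC4 were higher and KCNK7 lower in implantation A than in defect with and without defect 3, and without it KCNAB1 was called too. KCNK3 gave 1.56 ± 0.22 (adjusted p = 1.1e-09) with all libraries; without defect 3 both remaining defect libraries are at 0, so no fold is given. KCNC4 gave 1.78 ± 0.21 (adjusted p = 2.04e-13), and 3.03 without defect 3. KCNK7 was lower in implantation A (-1.2 ± 0.20, adjusted p = 9.79e-07, then -2.06). In defect 1 and 2 KCNC4 rests on 1 and 0 counts, KCNK7 on 2 and 6 and KCNAB1 on 1 and 0. KCNN3 was higher in implantation A by 0.64 ± 0.091 (adjusted p = 7.68e-09), although defect 1 at 35.2 TPM is above the implantation A libraries, and the call was lost without defect 3 (0.70). KCNJ2 gave 0.91 ± 0.15 (adjusted p = 3.72e-07), then 0.11, and its shallow libraries overlap with implantation A.

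Other members that were lower in implantation A than in defect lost their call without defect 3, among them KCNJ15, KCNK6, KCNA3 and KCNMB4. KCNJ15 gave -1.12 ± 0.14 (adjusted p = 2.26e-11), then -0.46. KCNK6 gave -1.09 ± 0.15 (adjusted p = 1.65e-09), then -0.86, and KCNA3 -2.66 ± 0.31 (adjusted p = 1.11e-12), then -0.97. KCNMB4 gave -1.03 ± 0.18 (adjusted p = 1.69e-06), then -0.66. For KCNK12 and KCNE4 the sign turned, from -1.80 ± 0.24 (adjusted p = 2.88e-10) to 0.45 and from -0.76 ± 0.19 (adjusted p = 0.000551) to 0.61. KCNAB3 was higher in implantation A (1.16 ± 0.48, adjusted p = 0.0267), and was not called without implantation A 3 (0.94).

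Implantation B and implantation A are not compared in the study's design, nor are ECs+ implantation and normal, and each pair uses libraries of the comparisons above. They were set side by side in a fit of all 15 libraries. Between implantation B and A, 20 of 62 members were higher in B (32.3%, against 27.2% of all genes) and 14 lower (22.6%, against 23.6%). With scaling by library size alone the split was 16 and 19 and the median of all genes -0.25. Fibroblast (5 of 5, median 0.86) and macrophage markers (6 of 6) were higher in B, and smooth muscle (8 of 8) and endothelial markers (6 of 8) lower. KCNC4 (1.21 ± 0.091, adjusted p = 1.03e-19), KCND2 (1.43 ± 0.13, adjusted p = 1.45e-15), KCNE4 (1.16 ± 0.13, adjusted p = 1.25e-12) and KCNN2 (1.65 ± 0.22, adjusted p = 4.12e-10) were higher in B, and KCNN3 (-0.89 ± 0.055, adjusted p = 7.35e-24) and KCNH2 (-1.21 ± 0.15, adjusted p = 6.7e-11) lower, with no overlap of the libraries for these 6 genes.

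Between ECs+ implantation and normal, 17 members were higher (27.4%, against 35.7% of all genes) and 22 lower (35.5%, against 35.6%), with a median of -0.27 over the members and -0.02 over all genes. KCNAB1 was higher in ECs+ implantation (1.39 ± 0.12, adjusted p = 6.18e-17). KCNC4 (-1.91 ± 0.16, adjusted p = 9.46e-20), KCNJ15 (-2.44 ± 0.23, adjusted p = 5.32e-18), KCNE5 (-3.35 ± 0.37, adjusted p = 2.29e-16), KCNK3 (-1.43 ± 0.16, adjusted p = 4.86e-13), KCNH3 (-1.0 ± 0.082, adjusted p = 2e-18), KCNJ12 (-1.01 ± 0.13, adjusted p = 4.09e-11) and KCNN3 (-0.76 ± 0.049, adjusted p = 2.87e-23) were lower. KCNA5 did not pass the test (-0.08 ± 0.13, adjusted p = 0.596). The keratinocyte and urothelium list was lower in ECs+ implantation than in normal as well, and its part was not tested.

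Other genes of membrane potential were counted from lists chosen with earlier results of these data known. In implantation A vs normal, where 32.2% of all genes were higher and 32.3% lower, 5 of 15 partners of the channels were higher (33.3%) and 3 lower, as were 8 (42.1%) and 6 (31.6%) of 19 calcium and chloride channels and 4 and 2 of 8 sodium-potassium pump genes. In ECs+ implantation vs implantation B, against 37.8% and 38.1% of all genes, the partners gave 5 higher (35.7%) and 7 lower of 14, the calcium and chloride channels 2 higher and 13 lower of 20, and the pump genes 4 higher and 3 lower (37.5%) of 8. The lists are short, and no test of a list was made. KCNMA1, the pore of the large-conductance channel that KCNMB4 joins, stood at 1.98 ± 0.287 TPM in normal and 15.6 ± 0.892 in implantation A (2.62 ± 0.098, adjusted p = 2.61e-42), and at 16.3 ± 1.23 in implantation B and 2.72 ± 0.283 in ECs+ implantation (-2.09 ± 0.075, adjusted p = 9.09e-31). KCNMB4 moved in the same direction as KCNMA1 in both. KCNMB1, the smooth muscle beta subunit, was higher in both comparisons, at 0.80 ± 0.085 (adjusted p = 8.45e-14) and 0.55 ± 0.081 (adjusted p = 3.79e-08). KCNJ8, the vascular ATP-sensitive pore, did not pass the test in implantation A vs normal (0.21 ± 0.12, adjusted p = 0.113) and was higher in ECs+ implantation (0.85 ± 0.12, adjusted p = 3.56e-08), while KCNJ11 was lower there. CACNA1C, the pore of the L-type calcium channel, was lower in ECs+ implantation (-2.04 ± 0.086, adjusted p = 8.04e-28), at 1.64 ± 0.0411 against 8.09 ± 0.400 TPM.

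Several members lie side by side in the genome, and neighbours did not always move together. Of the 91 members, 89 have a position on a numbered or X chromosome in RefSeq's annotation of Sscrofa11.1, and 10 pairs of neighbouring members lie within 200000 bases. KCNA5, KCNA1 and KCNA6 form one run on chromosome 5. In ECs+ implantation vs implantation B, KCNA1 gave -2.24 ± 0.28 and KCNA5 -0.06 ± 0.13, although 114630 bases separate them. KCNA3 and KCNA2, 36375 bases apart on chromosome 4, were both lower in that comparison, while only KCNA3 passed the test in implantation A vs normal; the difference between the 2 genes was not tested. Of the 60 measured members with such a position, 19 overlap another annotated gene and 10 a protein-coding one. The sources used here do not give the strand setting of the counting, so reads of such partners cannot be told apart.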

How the data were processed

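Gene levels came from polyadenylated RNA of 15 libraries. Per the labels' protocols, the kit was TruSeq RNA Library Prep Kit v2. The authors deposited 2 tables of the same genes and libraries, one of raw counts per gene and one of TPM. Build Sscrofa11.1 of the pig genome and the tools HTSeq, HISAT2, fastp and DESeq2 are listed in the submitters' processing notes. Their versions and settings, the strand of counting and the way the TPM were made are not given in the sources used here. Without a stated strand, reads of a member and of a gene that overlaps it cannot be told apart. Groups and library numbers were taken from the sample titles. For the ECs+ implantation libraries a further description line names a normal library, and the titles were followed. Chromosome positions are those of RefSeq's Sscrofa11.1 gene table, in which all 91 members were found.

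The deposited counts were tested with edgeR 4.0.16 (R 4.3.3): filterByExpr, TMM scaling, a robust quasi-likelihood fit and a two-sided quasi-likelihood F-test, with Benjamini-Hochberg adjustment over all genes tested. An adjusted p under 0.05 counts as a call. Normal, defect and implantation A were fitted together (9 libraries). A second fit held the 6 libraries of ECs+ implantation and implantation B, and the pairs outside the design came from all 15. The deposited TPM were used for levels, given as the mean ± SD of 3 libraries, and the "±" beside a log2 fold change is its standard error from the edgeR fit. Alternatives were no low-count filter, other scalings, DESeq2 1.42.0, limma 3.58.1 on log2(TPM + 1) and log2(TPM + 0.1), a replicate block, other sets of libraries and each library left out in turn. Fits on the 2 compared groups alone with DESeq2 or on TPM, and all such fits of implantation A vs normal, were added after seeing the data. The edgeR step was tested on simulated data. Intervals and the limits that a count of 0 allows (3 counts) cover counting error only.

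The members, the marker and partner lists and the alternatives were chosen with earlier results of these data known, so counts over them are descriptions. A member was measured where its mean was at least 0.5 TPM in 1 group or more. Values in every library were given for members with a known part in vessels and for the up to 2 measured members of each family with the smallest p in each comparison of the design, and any other measured member could be named. Some members are counted but not reported here by name or value.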

Additional observations from a re-analysis of the deposited data

How the results depend on the processing

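The 2 shallow defect libraries limit all that rests on the defect group. Of the members called in defect vs normal (45) and in implantation A vs defect (31), leaving out each library in turn gave 5 to 46 and 4 to 30, with the lowest count each time without defect 3. By DESeq2 the counts were 23 in defect vs normal, 12 in implantation A vs defect, 26 in implantation A vs normal (49 by edgeR) and 18 in implantation B vs implantation A (34 by edgeR). On log2(TPM + 1) they were 21, 18, 6 and 9, and 18 in ECs+ implantation vs normal (39 by edgeR). On log2(TPM + 0.1) they were 21, 13, 3, 5 and 13. In defect vs normal both TPM fits called 7 members higher and 14 lower, against 26 and 19 by edgeR. Of all 17855 genes they called 2562 higher and 5442 lower on log2(TPM + 1), and 2510 and 5222 on log2(TPM + 0.1). By edgeR these were 5715 and 5692. Calls over all genes were also fewer on log2(TPM + 1) in implantation A vs normal, at 2231 and 1068 against 5755 and 5767 by edgeR. In implantation B vs implantation A they were 1012 and 2525, and 3004 and 3229 by DESeq2, against 4978 and 4329 by edgeR. On the libraries of the compared groups alone, DESeq2 called 40 members in implantation A vs normal, 32 in implantation B vs implantation A and 31 in ECs+ implantation vs normal, and limma on log2(TPM + 1) called 46, 36 and 40. Over all genes, DESeq2 there called 5486 higher and 5087 lower of 17728, 4603 and 4181 of 17276, and 5909 and 5710 of 17605. On log2(TPM + 1) these were 6801 and 4456, 2794 and 7771, and 3273 and 9390. ECs+ implantation vs implantation B called 42 to 48 under all alternatives run. No member called by edgeR was called in the opposite direction under any alternative run. With a minimum of 1 TPM, 53 members count as measured, and with the shallow libraries left out, 60.

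Same-numbered libraries did not deviate together: their correlations were -0.0227 to 0.0197 in the fit of 9 libraries, -0.0163 to 0.00212 in the fit of 6 and -0.0218 to 0.0357 in the fit of 15, so they share only a number. With the replicate block, 44 members were called in defect vs normal, 24 in implantation A vs defect, 48 in implantation A vs normal, 45 in ECs+ implantation vs implantation B, 33 in implantation B vs implantation A and 38 in ECs+ implantation vs normal. All 127 single log2 fold changes of measured members given in the text kept their direction and side of the threshold under the block.

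Of these 127 values, 23 lost their call by DESeq2, 50 on log2(TPM + 1) and 59 on log2(TPM + 0.1). Scaling by library size alone turned the sign of 5 values, all in ECs+ implantation vs implantation B: KCNA5 to 0.17, KCNAB1 to 0.11, KCNH3 to 0.16, KCNJ12 to 0.0053 and KCNK2 to 0.16. On log2(TPM + 1) KCNAB1 turned to -0.29 in defect vs normal, and KCNE4 to 0.39 and KCNMB4 to 0.089 in implantation A vs defect. On log2(TPM + 0.1) these 3 stood at -1.16, 1.30 and 0.97, and KCNK12 in implantation A vs defect at 0.50. Over the libraries left out in turn, KCNAB1 ranged from -1.66 to 1.32 in defect vs normal. KCNE4 ranged from -0.81 to 0.61 and KCNK12 from -1.93 to 0.45 in implantation A vs defect. KCNH3 ranged from -0.19 to 0.016 and KCNK2 from -0.26 to 0.073 in ECs+ implantation vs implantation B, and KCNQ3 from -0.083 to 0.36 in implantation A vs normal. No cause of these changes was tested.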
